A study of Mus musculus with 16 samples.

Results

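Epithelial cells are held to each other by adherens and tight junctions, and they keep an apical and a basal side. Mesenchymal cells such as fibroblasts have given up these contacts, carry vimentin filaments and move singly. The passage from the first state to the second is the epithelial-mesenchymal transition, in which the Snail, Twist and Zeb transcription factors repress junction genes, and the reverse passage is one of the early steps when a fibroblast-like cell is reprogrammed to pluripotency. Mouse embryonic stem cells grow as compact colonies joined by E-cadherin.

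The expression of 10 genes that mark these states was examined, out of 22552 genes in the deposited table. They were chosen by name, with earlier results of these data already known. Cdh1 encodes E-cadherin, the adhesion molecule of adherens junctions. Epcam encodes an epithelial adhesion molecule, and Esrp1 encodes an RNA-binding protein that sets the epithelial splicing pattern. Cdh2 encodes N-cadherin, and Vim encodes the filament protein vimentin, both used as mesenchymal marks. Snai1, Snai2, Twist1, Zeb1 and Zeb2 encode the transcription factors. All 10 passed the filter on low values, as did 13185 genes in all.

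RNA was sequenced from 16 mouse pluripotent stem cell lines with 1 library each, so every p-value below measures the spread between lines. All lines carry the 129-M2rtTA background, from a cross of 129S2/Sv with Rosa26-M2rtTA mice, whose transactivator responds to doxycycline. They came from adipocyte progenitor cells (APCs) of all-iPSC mice, which hold the doxycycline-inducible reprogramming factors, so both kinds of line share the same insertions. AN lines are nuclear transfer embryonic stem cells, made by placing an APC nucleus in an enucleated oocyte of a B6D2F1 mouse and growing the blastocyst on a feeder layer of mouse embryonic fibroblasts (MEFs). AI lines are induced pluripotent stem cells, made by giving doxycycline to the APCs. Fully reprogrammed lines (F) and partially reprogrammed lines (P) were told apart by tetraploid complementation, which asks whether the cells alone can form a mouse. The 4 lines AN1, AN9, AN15 and AN20 formed AN F. The AN P group held 5, AN2, AN3, AN5, AN7 and AN6. AI F held 4, the lines GS32, AI3, AI7 and AI10. AI P held 3, AI9, GS4 and GS9. Each line is a single derivation. The sample labels give the line and its kind, and the F or P state follows the study's list of line names. GS4, GS9 and GS32 were older lines, and the source entries of GS9 and GS32 name GS4 while their titles do not. Passage numbers ran from 5 to 17, with GS4 at 17 and GS32 at 13. All lines were grown with serum and leukemia inhibitory factor.

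Relative depth, read from the steps between low values, was 0.963 to 1.27 times that of AN1, and the correlation between pairs of lines over genes was 0.929 to 0.978. The pluripotency markers Pou5f1 and Dppa5a were abundant in the lines, and 10 pluripotency markers summed to 2522 to 5088 FPKM (fragments per kilobase of transcript, scaled to the mapped fragments of the library). Markers of other cell types were also present. The 12 primitive endoderm markers were above 0 in every line and summed to 60.2 to 195 FPKM. That sum came mostly from Lamb1, Col4a1 and Col4a2, with means of 46.1, 44.2 and 35.7 FPKM. Gata4, Gata6 and Sox17 had means of 0.94, 0.95 and 0.30 FPKM, and Pdgfra is also on the fibroblast list. The sum therefore does not show that endoderm cells were present. All 20 fibroblast markers were above 0 in every line, with sums of 459 to 983 FPKM in AN F, 575 to 1150 FPKM in AN P, 535 to 1302 FPKM in AI F and 218 to 1006 FPKM in AI P. Primitive streak and mesoderm markers summed to 395 FPKM in AN6, and to 37.1 FPKM in the lowest AN P line. In such bulk samples, fewer cells of a type and less RNA per cell cannot be told apart.

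Snail and Zeb proteins bind the E-box CAGGTG, which reads CACCTG on the other strand. RefSeq promoter windows (GRCm38.p6, 250 bases before to 50 after the start site) were at hand for 5 of the 10 genes, in 8 windows: Epcam, Vim, Snai1, Twist1 and Zeb2. The E-box was found in 2 of these 8 windows, and 20.2% of 32817 windows of that length held it. The other members are Cdh1, Esrp1, Cdh2, Snai2 and Zeb1. Shown first is the window of the epithelial gene Epcam (chr17:87635729-87636028, forward strand), with 2 E-boxes in capitals, beginning 187 and 19 bases before the start site. The window of Snai1 (chr2:167537945-167538244, forward strand) holds 1, in capitals, beginning 126 bases before the start site. The window of Vim (chr2:13574061-13574360, forward strand) has none and is shown because this gene differed most between AI F and AI P.

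Epcam: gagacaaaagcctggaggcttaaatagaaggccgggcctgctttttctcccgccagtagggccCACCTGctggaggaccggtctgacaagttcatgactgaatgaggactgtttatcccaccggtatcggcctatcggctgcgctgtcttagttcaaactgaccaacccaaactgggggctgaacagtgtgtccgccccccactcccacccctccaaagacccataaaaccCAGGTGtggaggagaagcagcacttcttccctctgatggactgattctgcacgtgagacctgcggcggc

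Snai1: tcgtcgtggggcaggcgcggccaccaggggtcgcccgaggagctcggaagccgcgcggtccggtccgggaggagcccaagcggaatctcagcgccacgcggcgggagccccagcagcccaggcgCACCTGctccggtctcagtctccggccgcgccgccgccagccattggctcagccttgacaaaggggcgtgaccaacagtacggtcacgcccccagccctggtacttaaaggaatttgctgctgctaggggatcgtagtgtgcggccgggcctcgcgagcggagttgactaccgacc

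Vim: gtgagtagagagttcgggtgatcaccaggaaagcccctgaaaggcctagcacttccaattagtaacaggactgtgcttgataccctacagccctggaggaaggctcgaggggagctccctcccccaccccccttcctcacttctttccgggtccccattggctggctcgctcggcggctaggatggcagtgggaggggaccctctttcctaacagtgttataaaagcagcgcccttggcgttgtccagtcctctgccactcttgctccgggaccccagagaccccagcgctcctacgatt

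The letters describe these windows only, and binding was not tested.

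All 10 genes were expressed in every line. By mean FPKM, which is scaled to gene length, the order was Vim at 431, Cdh1 at 153, Epcam at 125, Esrp1 at 26.9, Cdh2 at 14.5, Twist1 at 6.61, Snai2 at 3.93, Snai1 at 3.91, Zeb1 at 3.53 and Zeb2 at 2.46. Vim was above Cdh1 in 16 of 16 lines and Cdh1 was above Epcam in 14 of 16. Snai2 was above Snai1 in 9 of 16 and Snai1 above Zeb1 in 10 of 16, so these neighbours were not ordered beyond their spread. Among adjacent genes in this order, only Epcam and Esrp1 had ranges over lines that did not meet. In rank among the 13185 genes, Vim stood at 255, Cdh1 at 689 and Epcam at 848, while Zeb2 stood at 10189. The bulk libraries thus held E-cadherin transcripts and vimentin transcripts together at high levels, and transcripts of the 5 factors at low levels. Whether the same cells held both was not tested.

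**Figure D1:**
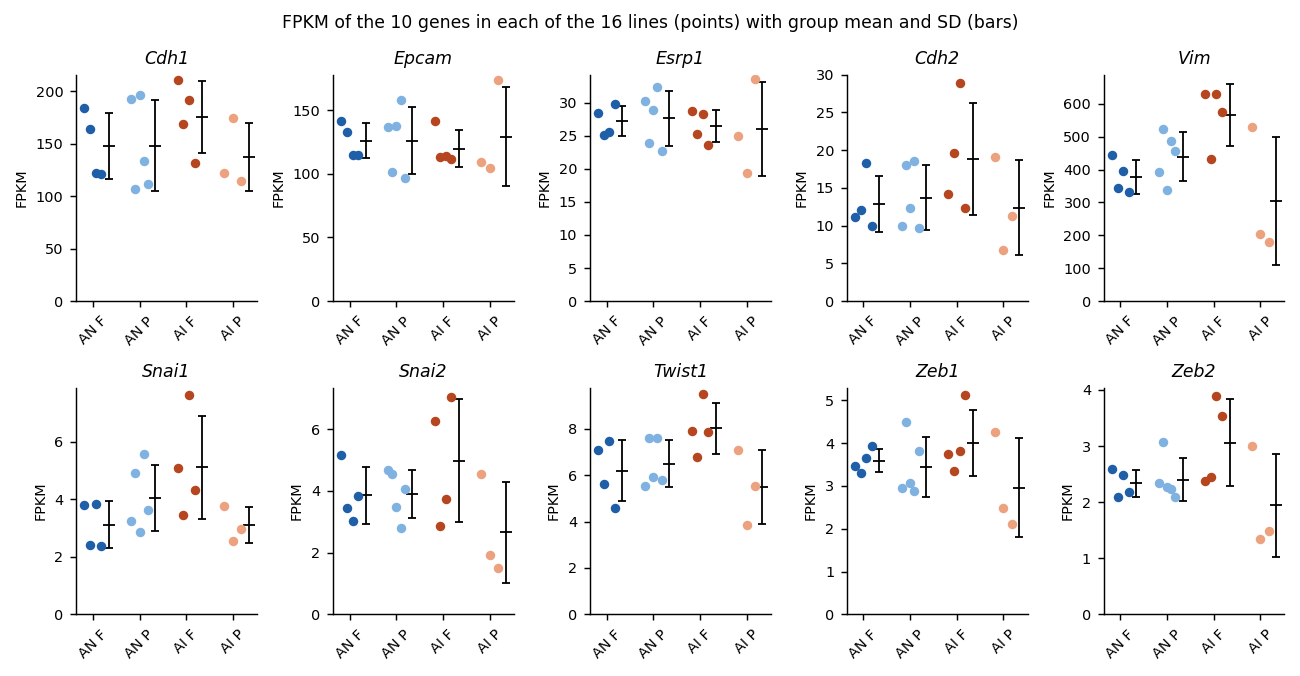
Each panel shows 1 gene, with FPKM on a linear axis from 0 and the lines as points in their groups (AN F, AN P, AI F, AI P), beside the group mean and SD. The groups overlap in every panel, and the AI P points of Vim split into AI9 at 528 and the other lines at 204 and 179.

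The highest line exceeded the lowest by 1.98 times for Cdh1, 1.8 times for Epcam and 1.73 times for Esrp1. For the other members this was 2.43 times (Zeb1), 2.45 times (Twist1), 2.9 times (Zeb2), 3.19 times (Snai1), 3.53 times (Vim), 4.28 times (Cdh2) and 4.67 times (Snai2). The SD of log2(FPKM + 1) over the lines was 0.34 for Cdh1, 0.28 for Twist1, 0.27 for Zeb2 and 0.25 for Zeb1. The added 1 compresses the spread of low genes on this scale. By highest over lowest line, Cdh1 varied less than each of these factors. Cdh1 (chromosome 8, 109127251 to 109194146 in mm9, forward strand) was at 184, 164, 122 and 121 FPKM in AN1, AN9, AN15 and AN20 of AN F. In AN P it was at 192, 106, 196, 133 and 112 FPKM for AN2, AN3, AN5, AN6 and AN7. In AI F it was at 211 FPKM for AI3, 169 for AI7, 191 for AI10 and 131 for GS32, and in AI9, GS4 and GS9 of AI P at 122, 174 and 115 FPKM. Lines at 133 FPKM or below and lines at 164 FPKM or above occurred in every group, with none between, and the ranges of the groups overlapped.

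The spread of Cdh1 was shared with its neighbours on the chromosome. This was looked at after the genes most like Cdh1 had been listed. Over the 16 lines and log2(FPKM + 1), the 5 genes most correlated with Cdh1, of 8425 ranked, were Ddx28 (r = 0.90), Slc7a6 (0.89), Edc4 (0.88), Wwp2 (0.88) and Ncapd2 (0.86). The first 4 of them lie within 1 Mb of Cdh1. Of 38 genes with a mean of at least 5 FPKM that start within 1 Mb, 37 had r over 0.5, and the median was 0.73. Among 6837 genes with at least 5 such neighbours, 39 genes (0.57%) had a median at or above this, 19 of them on chromosome 8. The median over those genes was 0.11. No such pattern was seen for Epcam (-0.22, 12 neighbours), Snai1 (0.08, 17 neighbours) or Snai2 (-0.03, 12 neighbours), and Esrp1 stood at 0.35 with 8 neighbours. The remaining members had too few expressed neighbours.

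The genes with such correlations formed a stretch. Read outward from Cdh1 until 3 genes in a row had r of 0.5 or less, it ran from Cbfb (r = 0.67) to Psmd7 (r = 0.64), over 107694574 to 110112382 of chromosome 8, or 2.42 Mb, and held 47 genes beside Cdh1. This rule uses r itself, so the next values describe the stretch only. Of these, 44 had r over 0.5. On the left the last gene of the stretch starts 1.43 Mb from Cdh1, and the next expressed gene, Fam96b, 1.96 Mb away, had r = -0.08. On the right the last starts 0.985 Mb away, and the next, Dhx38, 2.96 Mb away, had r = 0.20, so the right edge is not located within that gap. Farther out, Bcar1 (5.14 Mb, r = 0.52) and Plcg2 (10.9 Mb, r = 0.72) were also over 0.5. Over the other 428 genes of chromosome 8 the median r was 0.02, and 3.04% of them passed 0.5, against 5.11% of all 8255 other genes. Cdh3, which encodes P-cadherin and lies 0.09 Mb from Cdh1, had r = 0.72. Esrp2, a close relative of Esrp1, lies in the same stretch and had r = 0.60.

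Cdh1 and the median of the 38 genes within 1 Mb ordered the lines in a similar way. The window was bounded by position, but it was looked at after the genes most like Cdh1 were known to lie in it. Of the 38 genes, 37 had r over 0.5 with Cdh1, so the values below describe this relation and do not test it. The 8 lines with the highest Cdh1 were also the 8 lines with the highest median over these 38 genes (r = 0.86, rho = 0.76, 16 lines with 1 library each). Between the lowest of these lines and the highest of the others, Cdh1 had a gap of 0.29 (log2), where the next largest gap between adjacent lines was 0.10. For the median of the 38 genes the largest gap, 0.20, came after 9 lines and not after 8. AN7, with Cdh1 at 112 FPKM, lay on its upper side at -0.0047, and the next line was at -0.20. Within the higher 8 lines r was -0.17 and within the lower 8 lines it was -0.28, so the relation rests on the split. These 8 lines were 2 of 4 AN F, 2 of 5 AN P, 3 of 4 AI F and 1 of 3 AI P lines. The SD of Cdh1 over the lines was 0.34 (log2), and 0.17 once the median of the 38 genes was subtracted.

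In 2 lines the rest of chromosome 8 stood apart too. Its median, relative to each gene's mean over lines, was 0.46 in GS4 and 0.18 in AN7, against -0.12 to -0.0026 in the other 14 lines. Over the other autosomes the median was -0.07 to 0.08. Taken relative to the rest of the chromosome, the median of the 38 genes was at 0.19 to 0.31 in AN1, AN9, AN2, AN5, AI3, AI7 and AI10, and at -0.29 to -0.15 in the other 9 lines, with nothing between. GS4, whose Cdh1 was at 174 FPKM, lay in the lower set on this scale at -0.15. The study examined the karyotypes of the AN and AI lines that it derived and reported most of them as normal. Its text gives no karyotype for each named line. The number of DNA copies of the stretch or of the chromosome was not tested here.

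**Figure D2:**
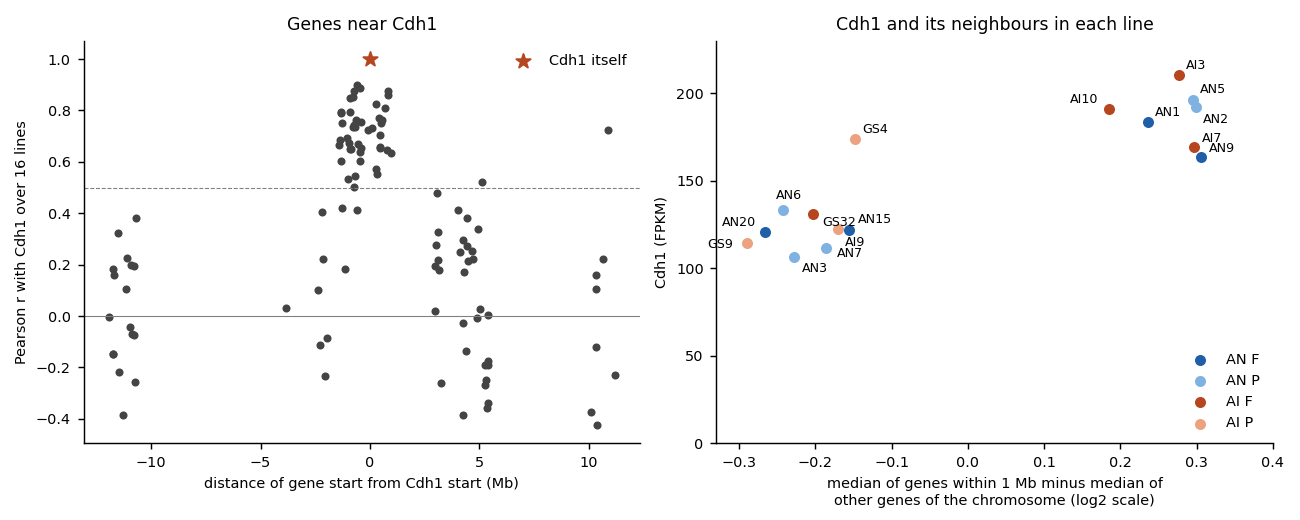
Left, the correlation with Cdh1 (vertical axis, Pearson r over 16 lines) of each expressed gene within 12 Mb, by distance of its start from that of Cdh1 (horizontal axis, Mb), with a dashed line at 0.5. Right, Cdh1 (FPKM, from 0) of each line against the median of the 38 genes within 1 Mb minus that of the other genes of the chromosome (log2 scale). Most genes within 1.43 Mb lie above the dashed line, outside the stretch 2 genes shown do (Bcar1 and Plcg2), and on the right 7 lines lie at 0.19 or above while 9 lie at -0.15 or below.

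Epcam (chromosome 17, 88035319 to 88050446, forward strand) was at 142, 133, 115 and 114 FPKM in AN1, AN9, AN15 and AN20, and at 137, 102, 138, 158 and 96.4 FPKM in AN2, AN3, AN5, AN6 and AN7. It was at 141, 113, 114 and 111 FPKM in AI3, AI7, AI10 and GS32, and at 109, 104 and 174 FPKM in AI9, GS4 and GS9. The highest value was that of GS9 and the next that of AN6, and no group stood apart. Esrp1 (chromosome 4, 11259080 to 11313930, reverse strand) was at 25.1 to 29.9 FPKM in AN F, 22.7 to 32.4 in AN P, 23.6 to 28.7 in AI F and 19.4 to 33.5 in AI P, again highest in GS9 and next in AN6. Epcam and Esrp1 went together over the 16 lines (r = 0.81, rho = 0.87), with r = 0.80 within the 9 AN lines and 0.84 within the 7 AI lines. Cdh1 had r = 0.29 to Epcam over the 16 lines, 0.73 within AN and -0.23 within AI, and r = 0.12 to Esrp1, 0.49 within AN and -0.16 within AI. An antisense-strand lincRNA overlaps Esrp1, and since no strand-specific counting is given in the sources used here, reads from the 2 genes cannot be told apart.

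Cdh2 (chromosome 18, 16747386 to 16967755, reverse strand) was at 11.2, 12.1, 18.3 and 9.95 FPKM in AN1, AN9, AN15 and AN20, and at 9.95, 18.1, 12.4, 18.5 and 9.73 FPKM in the AN P lines in the order above. In AI F it was at 14.2, 19.7, 28.9 and 12.4 FPKM, and in AI9, GS4 and GS9 at 19.1, 6.75 and 11.3 FPKM. AI10 was highest and GS4 lowest. The ratio of Cdh1 to Cdh2 FPKM ran from 5.89 in AN3 and 6.39 in AI9 to 19.3 in AN2 and 25.8 in GS4, with P lines at both ends. An overlapping transcript on the other strand limits Cdh2 in the same way.

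Cdh2 followed the primitive streak and mesoderm markers, a list that includes T and Eomes. Its r with their mean was 0.83 over 16 lines (rho = 0.81), 0.92 within AN, 0.82 within AI, and 0.80 without AN6 and AI10, the lines farthest from the median of that mean. The same r was 0.61 for Twist1 (0.77 within AN, 0.53 within AI), 0.59 for Snai1 (0.77 within AN, 0.45 within AI) and 0.28 for Vim. Without AN6 and AI10 these fell to 0.48 for Twist1, 0.23 for Snai1 and 0.08 for Vim. AN6 and AI10 had the highest T levels, at 257 and 174 FPKM, and AN6 had Krt8 at 662 FPKM against 17.8 to 180 in the other lines. The comparison with this marker list was added after the data had been seen.

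Vim (chromosome 2, 13495554 to 13504453, forward strand) was at 443, 343, 396 and 332 FPKM in AN1, AN9, AN15 and AN20, and at 394, 522, 339, 487 and 456 FPKM in AN2, AN3, AN5, AN6 and AN7. In AI3, AI7, AI10 and GS32 it was at 631, 432, 631 and 575 FPKM, and in AI9, GS4 and GS9 at 528, 204 and 179 FPKM. The range of AN P reached above that of AN F, while 2 of 3 AI P lines lay below every other line of the series. The genes most like Vim, of 8425 ranked, were Lmna (r = 0.97), Cpe (0.97), Gsn (0.97), Pam (0.96) and Flna (0.96).

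Among the transcription factors, Snai1 was at 2.39 to 3.84 FPKM in AN F, 2.86 to 5.59 in AN P, 3.45 to 7.62 in AI F and 2.56 to 3.78 in AI P. Snai2 was at 3.03 to 5.16, 2.80 to 4.67, 2.87 to 7.04 and 1.51 to 4.53 FPKM in the same groups. Twist1, a basic helix-loop-helix factor of early mesoderm, was at 4.60 to 7.47, 5.53 to 7.62, 6.78 to 9.48 and 3.87 to 7.06 FPKM. Each of these 3 genes had its lowest value in the series in GS4, GS9 or AN20, and its highest in AI10 or GS32. Zeb1, a zinc-finger repressor of Cdh1, was at 3.29 to 3.94, 2.89 to 4.49, 3.34 to 5.12 and 2.11 to 4.27 FPKM. Zeb2, its paralog, was at 2.09 to 2.60, 2.09 to 3.06, 2.38 to 3.89 and 1.34 to 3.0 FPKM. Annotated genes overlap Zeb1 and Zeb2, so part of their reads may be shared. The genes most like Zeb2, of 8426 ranked, were Nes (r = 0.94), Spag9 (0.93), Ets1 (0.93), Pdlim5 (0.93) and Gpc4 (0.92).

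Pairs of mesenchymal members and factors had r from 0.12 to 0.88 over the 16 lines. Snai1 and Twist1 had r = 0.88, Vim and Zeb2 0.86, Cdh2 and Twist1 0.84, and Snai2 and Zeb1 0.81. At the low end, Cdh2 and Snai2 had r = 0.12 (-0.52 within AN), Snai1 and Snai2 0.34 (-0.08 within AN), Cdh2 and Zeb1 0.36, and Snai1 and Zeb1 0.37. Within the 9 AN lines, Vim kept r = 0.92 with Snai1 but had 0.21 with Snai2 and 0.27 with Zeb1, while within the 7 AI lines these were 0.79, 0.89 and 0.90. Over the 16 lines Cdh1 had r between -0.24 and 0.17 with each of the 7 mesenchymal members and factors. Within AN it had r = -0.74 with Zeb1, -0.45 with Vim and -0.38 with Cdh2, and within AI 0.06, 0.37 and 0.18. Zeb1 and Epcam had r = -0.61.

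Levels of Vim and of the 5 factors went with the fibroblast markers. Over the 16 lines, r with the mean of the 20 markers was 0.90 for Snai2, 0.89 for Vim, 0.85 for Zeb1, 0.83 for Zeb2, 0.66 for Twist1 and 0.61 for Snai1. Without GS9 and GS32, the lines farthest from the median of that mean, these were 0.80, 0.82, 0.68, 0.74, 0.70 and 0.67. Within the 9 AN lines they were 0.70, 0.76, 0.46, 0.74, 0.50 and 0.58. Within the 7 AI lines they were 0.95, 0.93, 0.96, 0.87, 0.75 and 0.70. Over the 16 lines r was 0.34 for Cdh2 and 0.06 for Cdh1. The fibroblast marker mean (log2) was lowest in GS9 at 2.93 and GS4 at 3.50 and highest in GS32 at 5.03. MEF feeder cells, APC-like cells and differentiated cells carry such markers alike, and their part in these levels was not tested.

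**Figure D3:**
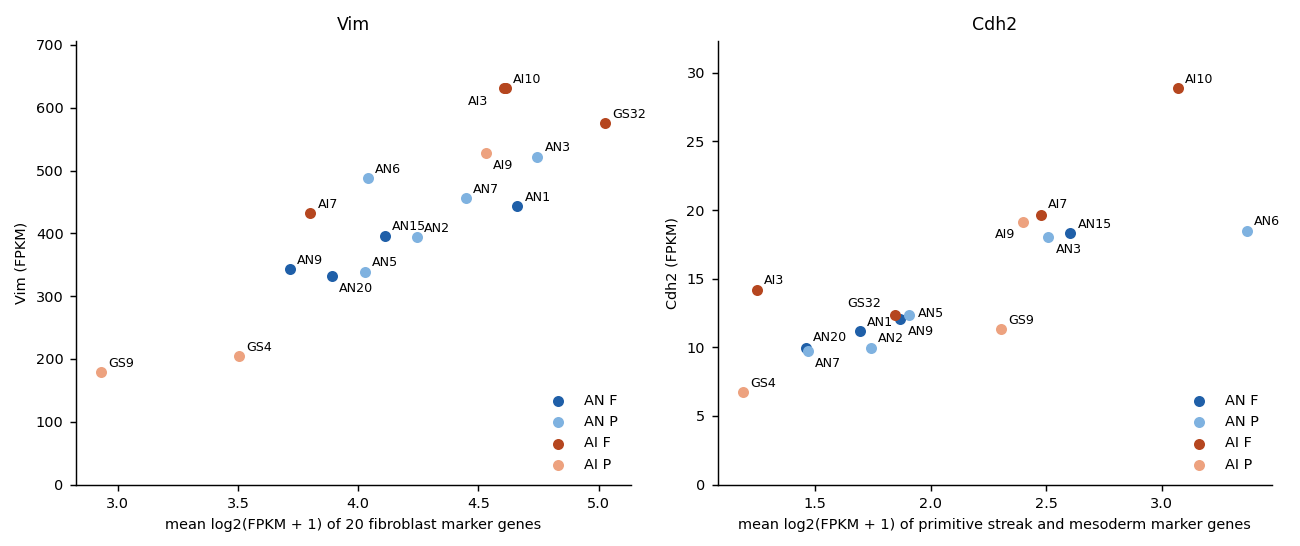
Left, Vim (FPKM, from 0) of each line against the mean log2(FPKM + 1) of 20 fibroblast markers. Right, Cdh2 (FPKM, from 0) against the mean of the primitive streak and mesoderm markers. Colours give the 4 groups, GS9 and GS4 sit at the lower left for Vim, and AI10 is highest for Cdh2.

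Whether fully and partially reprogrammed nuclear transfer lines differ in epithelial or mesenchymal state was asked by comparing AN F with AN P. None of the 10 genes passed the test. The largest differences in log2(FPKM + 1) were -0.29 (SE 0.19) for Snai1 and -0.21 (SE 0.14) for Vim, both lower in AN F, with adjusted p = 0.638 and 0.640 (limma, Benjamini-Hochberg over all genes) and exact two-sided permutation p = 0.238 and 0.190. The other 8 lay between -0.07 and 0.06, and the 95% interval of Cdh1 was -0.47 to 0.51 while that of Zeb2 was -0.24 to 0.20. By limma no gene of the 13185 passed an adjusted p of 0.05 (0%), and 6.01% had an unadjusted p under 0.05, among them 0 of the 10. The ranges of the 2 groups overlapped for all 10 genes, and did not overlap for 1.3% of genes.

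In AI lines, 9 of the 10 genes had a mean that was higher for AI F than for AI P, where 43.7% of all tested genes did, and none passed the test. Vim was 1.06 higher in AI F (log2, SE 0.37, 95% interval 0.18 to 1.94), or 2.09-fold on the FPKM + 1 scale, with unadjusted p = 0.0240, adjusted p = 0.521 and exact permutation p = 0.114. Twist1 was 0.49 higher (SE 0.19, unadjusted p = 0.0365), Snai2 0.73 higher (SE 0.36, 0.0766), Snai1 0.54 higher (SE 0.23, 0.0517) and Zeb2 0.49 higher (SE 0.23, 0.0714), all with adjusted p = 0.521 in limma. Cdh2 differed by 0.60 (SE 0.38), Zeb1 by 0.36 (SE 0.21) and Cdh1 by 0.36 (SE 0.21). Epcam, at -0.07 (SE 0.20), and Esrp1, at 0.06 (SE 0.18), were the closest to equal. An unadjusted p under 0.05 with AI F higher was found for 2 of the 10 genes, Vim and Twist1, and for 3.47% of all genes (7.77% in either direction), while 0% passed the adjusted threshold. The groups overlapped for all 10 genes, where 4.88% of genes had groups that did not. The smallest p that an exact test of 4 against 3 lines can give is 0.0571.

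The AI P lines were unlike each other. GS4 was below the AI F range for 9 of the 10 genes and inside it for Cdh1. GS9 was below it for 8 genes and above it for Epcam and Esrp1. AI9 was inside it for 8 genes and below it for 2. Without AI9, Vim differed by 1.55, with adjusted p = 0.123 in limma. Older derivations made up 2 of the 3 AI P lines and 1 of the 4 AI F lines. Among the newer AI lines, Vim in AI9 lay inside the AI F range, and among the older ones it was higher in GS32 than in GS4 and GS9. With derivation as a term the difference was 0.79, with adjusted p = 0.917 in limma. The fibroblast markers went with this comparison: all 20 had a higher mean in AI F, with a median difference of 1.04, and they summed to 218 FPKM in the lowest AI P line. With the fibroblast marker mean as a covariate, the difference was 0.39 for Vim, 0.07 for Snai2, 0.14 for Zeb2 and -0.01 for Zeb1, and 0.33 for Snai1 and 0.30 for Twist1. For Cdh1 it was 0.42 with the covariate, while the median of the 38 genes within 1 Mb differed by 0.15 between AI F and AI P and Cdh1 minus that median by 0.21.

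**Figure D4:**
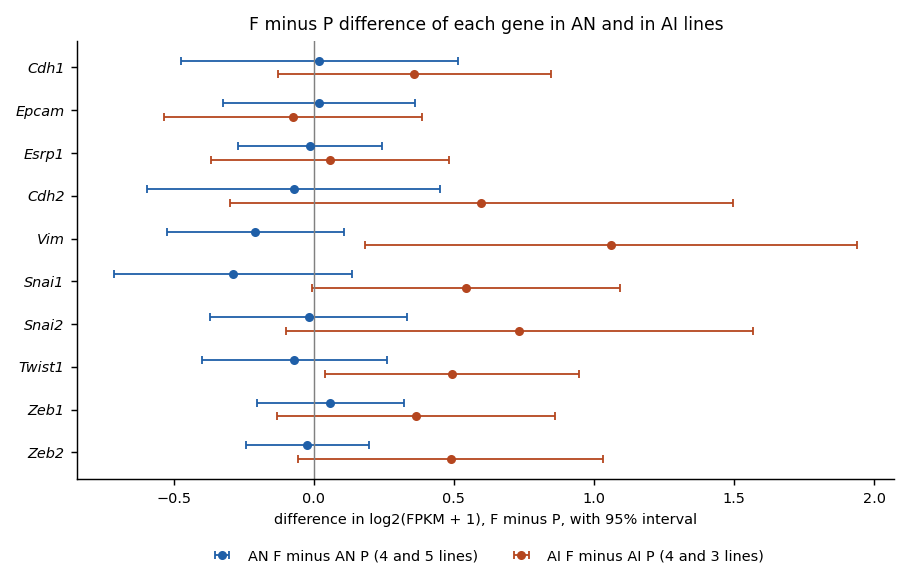
Difference in log2(FPKM + 1) between F and P lines for each gene (points) with its 95% interval (bars), for AN (4 against 5 lines) and AI (4 against 3 lines). All AN intervals include 0, and so do all AI intervals but those of Vim and Twist1. All AI points but that of Epcam lie to the right of 0, those of Cdh1 and Esrp1 among them.

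The AI difference minus the AN difference (the interaction) was then estimated from the 16 lines together. It was 1.27 for Vim (SE 0.38, unadjusted p = 0.00455), 0.83 for Snai1 (SE 0.31, 0.0160), 0.56 for Twist1 (SE 0.24, 0.0335) and 0.51 for Zeb2 (SE 0.24, 0.0485), with adjusted p of 0.290, 0.290, 0.290 and 0.299 in limma. So 4 of the 10 genes had an unadjusted p under 0.05 with the AI difference higher, as did 8.3% of all genes (16.6% in either direction), and 0% passed after adjustment. The fibroblast markers went with it: 19 of the 20 had a higher AI difference, with a median of 1.30, and 12 had an unadjusted p under 0.05. Their part in the result was not tested. This result depended on AI9. Without it, the 2 AI P lines left were GS4 and GS9, both older derivations and those with the lowest fibroblast marker means. All AN lines and all AI F lines but GS32 were newer, so state and derivation were largely confounded there. In that fit the interaction was 1.76 for Vim (limma adjusted p = 0.0255) and 0.76 for Zeb2 (adjusted p = 0.0462). Of the 13185 genes, 651 passed, 450 with the AI difference higher and 201 lower.

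Nuclear transfer and induced lines were compared over both states. No member passed the test, with log2 differences of AN minus AI from -0.14 (Cdh2) to 0.12 (Snai2), limma adjusted p of 0.999 for all 10, and exact permutation p of 0.498 to 0.925 when line kind was exchanged within F and within P. The 95% interval was -0.43 to 0.26 for Cdh1 and -0.35 to 0.47 for Vim. By limma 0% of genes passed the adjusted threshold and 3.52% had an unadjusted p under 0.05, none of them a member. The ranges of AN and AI lines did not overlap for 0.0228% of genes and overlapped for all 10 members. In all, 30 exact tests were run on the members, and 0 gave p under 0.05.

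The wider pathway was read from gene lists, none of which had a gene past the adjusted threshold. Of 18 mesenchymal effector genes, all 18 had a lower mean in AN F than in AN P and all 18 had a higher mean in AI F than AI P lines, with medians of -0.32 and 0.78 (log2), where the medians over all tested genes were -0.01 and -0.04. The unadjusted p was under 0.05 with AI F higher for 4 of them, against 3.47% of all genes, and with the AI difference higher than the AN difference for 15, against 8.3%. Tpm1, which encodes an actin-binding tropomyosin, was the most abundant at 645 FPKM. Tgfbi, an extracellular protein induced by TGF-beta, had the smallest p in AI, at 1.00 (SE 0.31), and Tpm2 that in AN, at -0.49 (SE 0.20). These genes are expressed by fibroblasts too, and of the 20 fibroblast markers 17 had a lower mean in AN F and 20 a higher mean in AI F, with medians of -0.23 and 1.04. Of all 13185 tested genes, 7071 had a lower mean in AN F and 5763 a higher mean in AI F.

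Of 10 further transcription factors of the transition, 9 had a higher mean in AI F, with a median of 0.50, and 4 had an unadjusted p under 0.05 in that direction, against 3.47% of all genes. Foxc1, a forkhead factor, had the smallest p, at 0.69 (SE 0.24), and Tcf3, an E-protein that binds E-boxes, was the most abundant at 47.1 FPKM. Their median in AN was -0.14. Of 12 TGF-beta signalling genes, 10 had a higher mean in AI F, with a median of 0.43, and 1 had an unadjusted p under 0.05, the SMAD co-repressor gene Ski at 0.52 (SE 0.20). In AN the median was -0.05, and 2 had an unadjusted p under 0.05 with AN F higher, among them Smad4 at 0.17 (SE 0.07), where 3.02% of all genes did.

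Among the epithelial lists, of 29 junction and polarity genes, 18 had a higher mean in AI F and 11 a lower one, with a median of 0.02, and 1 had an unadjusted p under 0.05, the tight junction scaffold gene Tjp3, at -0.50 (SE 0.18), where 4.3% of all genes were lower in AI F at that p. In AN, 22 of the 29 had a lower mean in AN F, with a median of -0.19 and 0 with an unadjusted p under 0.05. Of all 13185 tested genes, 7071 had a lower mean in AN F. AN6, an AN P line, held the highest Krt8 and Krt18, at 662 and 469 FPKM. The medians of these genes were 69.3 and 49.7 FPKM in AN P and 66.1 and 45.1 FPKM in AN F, so their means rest largely on AN6. Of 8 epithelial regulators, 6 passed the filter, and 5 of these 6 had a lower mean in AI F, with a median of -0.22. Among them Elf3, an epithelial ETS factor, was at -0.59 (SE 0.28) in AI, and Ovol2, a repressor of Zeb1, at 0.29 (SE 0.12) in AN with unadjusted p = 0.0329. Of the cadherin-catenin partners, 7 of 9 were tested, with medians of -0.04 in AN and 0.03 in AI. Ctnnb1, which encodes beta-catenin, was the most abundant at 254 FPKM, and Vcl, which encodes vinculin, was 0.86 higher in AI F (SE 0.36, unadjusted p = 0.0479). The 6 entries for microRNAs of the miR-200 and miR-205 families, which repress Zeb1 and Zeb2, were listed at 0 in all 16 lines. No small-RNA library is described for these lines, so these entries do not measure the mature microRNAs.

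Pluripotency markers ran the other way in AI. Of 10, 8 had a lower mean in AI F than in AI P, with a median of -0.42. Of all 13185 tested genes, 7375 had a lower mean in AI F. Tdgf1, a Nodal co-receptor gene, was at -0.71 (SE 0.25, unadjusted p = 0.0245 in limma). Tdgf1 was at 543 FPKM in AI9, inside the AI F range of 506 to 555, and at 1001 in GS4 and 1134 in GS9. Dppa5a was at 1033 FPKM in AI9, inside the AI F range of 811 to 1247, and at 1700 in GS4 and 1321 in GS9. In AN, 7 of 10 had a higher mean in AN F, where 46.2% of all tested genes did, and their median was 0.10. The 9 tested primitive endoderm markers had medians of -0.22 in AN and 0.43 in AI, and the 9 tested streak and mesoderm markers -0.27 and 0.20. The endoderm list holds Lamb1, Col4a1, Col4a2 and Pdgfra, so its medians do not stand for endoderm cells alone.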

How the data were processed

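Lines, groups and passages were taken from the sample titles and labels, and the F and P states from the study's list of lines. The deposited values are FPKM per gene and line. Per the submitters' processing notes, TopHat2 2.1.0, HTSeq and Cufflinks 2.2.1 were used by the authors with mm9. The role of HTSeq and strand setting are not given in the sources used here. The libraries were single-end and sequenced together. FPKM are not counts, so the authors' Cuffdiff test, which needs reads, was not run.

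Genes with a mean of at least 0.5 FPKM (13185 of 22552) were tested on log2(FPKM + 1) with limma 3.58.1 (R 4.3.3, trended variance), with Benjamini-Hochberg adjustment over all of them and a threshold of 0.05. A fold on this scale understates the change of low genes. The F against P comparisons of AN and of AI were each fitted on their own lines, and AN against AI and the interaction in a fit of 16 lines in 4 groups. Members were also tested by exact two-sided permutation (scipy 1.17.1). The scripts were tested on simulated data. Read totals are unknown and no counting interval is given. No 2 lines had identical columns. Replicate numbers only name lines.

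Positions are from the mm9 annotation (GENCODE vM1). Likeness was ranked among genes with a mean of at least 5 FPKM. Named genes of each list are the most abundant and for each comparison the one of lowest p. Neighbours of Cdh1 and single values of T, Krt8, Krt18 and primitive endoderm markers were chosen after their values were seen. The members and lists were chosen with earlier results of these data known. Alternatives changed the pseudocount, filter, scaling, variance model and covariates, left out each line, and, added after seeing the data, left out GS9 and GS32.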

Additional observations from a re-analysis of the deposited data

Results flagged for a closer look

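In AI F, Epcam was at 141 FPKM in AI3, while the other 3 lines lay at 111 to 114, so AI3 stood far from the rest of its group. Its Cdh1 was also the highest of the series, at 211 FPKM. In AN P, Zeb2 was at 3.06 FPKM in AN3 and at 2.09 to 2.34 FPKM in the other 4 lines. AN3 also had the highest Zeb1 and Vim and the highest fibroblast marker mean of AN P. Of 30 groups of lines looked at in this way, 2 had such a line, and chance gives about 1.5. The 3 AI P lines are too few for this check.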

How the results depend on the processing

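Counts of genes past an adjusted p of 0.05 were 0 in each comparison. At an unadjusted p under 0.05 they were 792 for AN F against AN P, 1025 for AI F against AI P, 464 for AN against AI and 2194 for the interaction. With 1 line left out they ran from 0 to 1, 0 to 5, 0 to 1 and 0 to 651. The 651 came without AI9, and leaving out any other line gave at most 1 for the interaction. Without GS9 and GS32, 6 genes passed for AI F against AI P and 1 for AN against AI, and with derivation as a term 1 passed for AN against AI. The causes were not tested.

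The sign of small differences depended on the setting. For AN F against AN P it turned for Zeb2 under quantile normalization (0.00021), for Esrp1 under median-ratio scaling (0.0010) and with passage as a covariate (0.013), and with the fibroblast marker mean as a covariate for Cdh1 (-0.0235), Epcam (-0.037), Snai2 (0.089) and Zeb2 (0.036). For AI F against AI P it turned for Epcam under quantile normalization (0.071), with the fibroblast covariate (0.11) and without GS9 and GS32 (0.19), for Esrp1 with passage (-0.016) and for Zeb1 with the fibroblast covariate (-0.011). For AN against AI it turned for Zeb2 with a pseudocount of 0.1 (0.0085), with passage for Cdh1 (0.0033), Epcam (-0.045), Esrp1 (-0.046) and Vim (-0.038), with derivation for Vim (-0.24) and Zeb1 (-0.0087), and without GS9 and GS32 for Vim (-0.080). For the interaction it turned for Epcam under quantile normalization (0.0077) and without GS9 and GS32 (0.18).

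With 1 line left out, the AN F against AN P difference ran from -0.093 to 0.13 for Cdh1, -0.073 to 0.10 for Epcam, -0.079 to 0.045 for Esrp1, -0.24 to 0.041 for Cdh2, -0.14 to 0.067 for Snai2, -0.15 to 0.045 for Twist1 and -0.060 to 0.043 for Zeb2. The AI F against AI P difference ran from -0.21 to 0.16 for Epcam and -0.13 to 0.25 for Esrp1, and their interaction from -0.22 to 0.14 and -0.11 to 0.27. AN against AI ran from -0.15 to 0.0096 for Cdh1, -0.039 to 0.14 for Epcam, -0.018 to 0.17 for Esrp1, -0.31 to 0.034 for Cdh2, -0.086 to 0.30 for Vim, -0.15 to 0.030 for Twist1, -0.038 to 0.15 for Zeb1 and -0.083 to 0.11 for Zeb2. No other member changed sign under any alternative run. At a minimum mean of 5 FPKM, Snai1, Snai2, Zeb1 and Zeb2 were not tested. No paired analysis was possible because the replicate numbers only follow accession order.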
